A study of Mus musculus with 12 samples.

Results

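The genes described here are 9 matrix metalloproteinase genes (Mmp2, Mmp3, Mmp7, Mmp8, Mmp9, Mmp10, Mmp12, Mmp13 and Mmp14) and Timp1, the gene of a tissue inhibitor of these enzymes. They were taken by name from the deposited gene table, and all 10 names were found among its 54532 genes. RNA with a poly(A) tail from the colon was sequenced in 12 mice, 3 in each of 4 groups, with 1 library per mouse. Tmem173fl/fl mice carried a floxed Tmem173 gene, which encodes STING, and no Cre. Tmem173iΔmye mice were Tmem173fl/fl mice that also carried Lyz2-CreERT2, a tamoxifen-activated Cre recombinase under the control of Lyz2, a gene of myeloid cells, so that other cells of the colon were meant to keep STING. All mice were on the C57BL/6N background and, per the study's methods, mice of both genotypes received 5 tamoxifen injections. Colitic mice drank dextran sodium sulfate (DSS, 2.5 to 3%) for 7 days from 6 to 8 weeks of age, followed by 1 day of water, and untreated mice drank water.

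Matrix metalloproteinases are zinc enzymes that cut collagens, elastin, other matrix proteins and cell-surface proteins. Most are secreted as inactive proenzymes, and their activity is set by transcription, by removal of the propeptide and by TIMP proteins, which block the active site. In the injured gut they come from fibroblasts, macrophages, neutrophils and epithelial cells and take part in ulceration and in wound repair. Transcription of several of these genes is known to respond to AP-1 factors and to cytokines such as interleukin-1 and oncostatin M.

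Of the 10 genes, 6 lie in 1 cluster on chromosome 9. In the deposited table (GRCm38), the cluster holds 10 Mmp genes over 427.1 kb in the order Mmp13, Mmp12, Mmp1b, Mmp3, Mmp1a, Mmp10, Mmp8, Mmp27, Mmp20 and Mmp7. All but Mmp1b are on the plus strand. The first of them, Mmp13, starts at 7272514 and the last, Mmp7, ends at 7699585. The other members are Mmp2 (chr8:92827291-92853420), Mmp9 (chr2:164940780-164955850), Mmp14 (chr14:54431612-54445364) and Timp1 (chrX:20870166-20874735), each on the plus strand. Mmp12, Timp1 and Mmp7 share bases with a gene on the opposite strand: Mmp12 with Mmp1b (1261 bases, chr9:7368239-7369499), Timp1 with Syn1 and Mmp7 with AV064505. Whether strand was used in counting is not given in the sources used here, so reads in the shared bases cannot be assigned with certainty.

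Windows from 250 bases before to 50 bases after the transcription start (RefSeq, GRCm38.p6) were at hand for 8 of the 10 genes, in 10 windows, since Mmp7 and Mmp12 have a pair of starts each. They were searched on both strands for the AP-1 motif TGANTCA, for TATAAA and for a loose NF-κB motif. The AP-1 letters were present in the windows of 5 genes, Mmp3, Mmp7, Mmp10, Mmp12 and Mmp13, all of the chromosome 9 cluster, and in 7.81% of all 32851 windows. TATAAA was present in those 5 genes and in Mmp8, and in 13.6% of all windows. The 110 bases before the start are shown for the 6 cluster genes because several of these neighbours share short promoter motifs and yet had different readouts, given further on. Capitals mark TGANTCA and TATAAA where they lie fully within the stretch, and every stretch is on the plus strand, 5′ to 3′.
Mmp13 (chr9:7272404-7272513): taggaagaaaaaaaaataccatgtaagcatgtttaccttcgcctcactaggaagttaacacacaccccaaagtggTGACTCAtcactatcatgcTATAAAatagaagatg
Mmp12 (chr9:7347264-7347373): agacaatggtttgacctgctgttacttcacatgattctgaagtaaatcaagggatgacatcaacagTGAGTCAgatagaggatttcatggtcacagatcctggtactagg
Mmp3 (chr9:7445712-7445821): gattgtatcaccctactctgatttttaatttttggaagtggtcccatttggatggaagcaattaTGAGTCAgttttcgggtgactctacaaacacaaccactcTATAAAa
Mmp10 (chr9:7502232-7502341): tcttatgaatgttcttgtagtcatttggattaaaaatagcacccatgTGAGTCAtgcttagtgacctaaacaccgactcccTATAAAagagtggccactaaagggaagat
Mmp8 (chr9:7558319-7558428): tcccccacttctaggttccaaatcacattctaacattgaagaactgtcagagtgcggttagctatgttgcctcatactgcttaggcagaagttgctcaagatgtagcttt
Mmp7 (chr9:7691980-7692089): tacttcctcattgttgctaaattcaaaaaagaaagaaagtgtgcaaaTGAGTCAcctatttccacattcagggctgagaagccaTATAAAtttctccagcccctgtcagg
The first base of the AP-1 motif lay 35 bases before the start in Mmp13, 44 in Mmp12, 46 in Mmp3 and 63 in both Mmp10 and Mmp7. In Mmp12 the motif belongs to the downstream start, where TATAAA lies just after the start and so outside the stretch, and the window of the upstream start held neither of these motifs. The window of the downstream Mmp7 start held none of the motifs searched. For both genes the stretch shown is that of the start with TGANTCA. In Mmp8 TATAAA was found on the minus strand across the start and no TGANTCA was found. The windows of Mmp14 and Timp1 held neither TGANTCA nor TATAAA. The NF-κB motif was found in windows of 4 genes, Mmp7, Mmp12, Mmp14 and Timp1, and in 50.8% of all windows. A match of letters is a description and does not show that a factor binds there.

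Library totals ran from 13823237 to 18718915 counts. The targeted gene was present in all libraries: Tmem173 was at 14.4 to 24.5 CPM (read counts relative to the library total, scaled by TMM) in untreated Tmem173fl/fl, 14.6 to 21.3 in untreated Tmem173iΔmye, 37.7 to 44.0 in colitic Tmem173fl/fl and 23.8 to 47.8 in colitic Tmem173iΔmye mice. Between the genotypes in colitis it was not called (edgeR adjusted p = 0.602, log2 fold change -0.28 ± 0.26 SE), and in whole colon the myeloid deletion cannot be read from this value. Markers of colon epithelium were all present, at a summed 11120 to 31200 CPM. Xist, an RNA of female cells, was found in replicate 3 of both untreated groups and in replicate 5 of the colitic Tmem173iΔmye group and stayed under 1 CPM elsewhere. Acinar pancreas RNA was uneven, from 0 to 7872 CPM summed over 6 markers. The study calls its control mice litter-mates, and which of these 12 mice shared a litter or cage is not given in the sources used here, so p-values measure the spread between these mice alone.

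In Tmem173fl/fl mice, DSS colitis raised all 10 genes, with ratios of mean levels from 4.74 for Mmp14 to 604 for Mmp10 in the 9 genes other than Mmp8, whose untreated level was near 0 counts. All 10 were called higher (edgeR quasi-likelihood test, Benjamini-Hochberg adjusted p under 0.05 and a log2 fold change of at least 1), against 14.9% of the 24102 genes tested. Their median log2 fold change was 5.52, against 0.03 over all genes tested. In all 10, every colitic library was above every untreated one, as it was in 23.9% of all genes tested. Values below are CPM for replicates 1, 2 and 3, and since the tissue is bulk colon, more cells that make an RNA and more RNA per cell cannot be told apart.

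**Figure D1:**
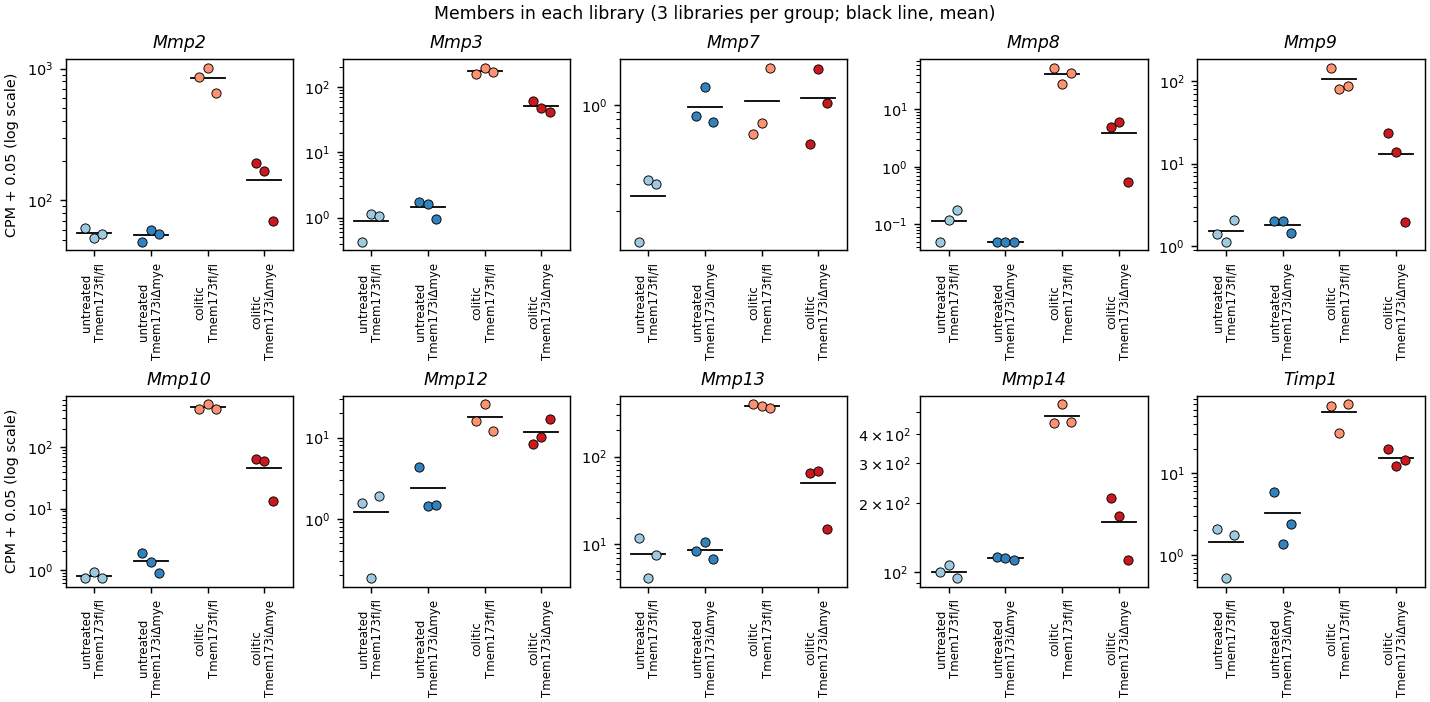
CPM plus 0.05 on a log axis (1 scale per panel) of the 10 genes in each of 12 libraries; points are libraries and black lines are group means. Colitic Tmem173fl/fl libraries are highest in 8 panels, while in Mmp7 and Mmp12 the colitic groups overlap.

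The stromelysins Mmp3 and Mmp10, broad matrix proteases that also activate other proMMPs, rose most among genes with reads in every untreated library. Mmp10 was at 0.682, 0.88 and 0.689 CPM in untreated Tmem173fl/fl mice and at 428, 504 and 428 in colitic ones (log2 fold change 9.29 ± 0.22 SE, edgeR adjusted p = 4.05e-08). Mmp3 was at 0.379, 1.08 and 1.0 CPM untreated and at 155, 196 and 168 in colitis (7.75 ± 0.29, adjusted p = 4.23e-07). Both genes thus went from about 1 CPM or less to a high level, and the 3 colitic libraries lay within a narrow band.

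The collagenases cut fibrillar collagen. Mmp13, collagenase-3, was at 11.8, 4.06 and 7.52 CPM untreated and at 395, 382 and 363 in colitis (5.68 ± 0.35, adjusted p = 3.02e-06). Mmp8, the collagenase stored in neutrophil granules, had 0, 1 and 2 counts in untreated libraries and 981, 582 and 642 counts in colitic ones, a ratio of 595 (95% counting interval 203 to 2890). That interval covers counting error and not the spread between mice.

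The gelatinases, which cut denatured collagen and basement membrane collagen, started from different levels. Mmp2, made mainly by fibroblasts, was at 61.6, 52.0 and 55.1 CPM untreated and at 862, 1016 and 658 in colitis (3.98 ± 0.20, adjusted p = 1.22e-06). Mmp9, a gelatinase of neutrophils and macrophages, was at 1.36, 1.08 and 2.0 CPM untreated and at 146, 81.1 and 88.8 in colitis (6.20 ± 0.32, adjusted p = 1.22e-06). Mmp14, a membrane-anchored protease that activates proMMP2, was at 101, 108 and 94.5 CPM untreated and at 446, 538 and 452 in colitis (2.32 ± 0.15, adjusted p = 3.96e-06). Mmp14 had the highest untreated CPM of the 10 genes and, with Mmp7, the smallest fold change.

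Mmp12, the elastase of macrophages, was at 1.52, 0.135 and 1.88 CPM untreated and at 16.0, 25.7 and 11.9 in colitis (3.98 ± 0.59, adjusted p = 0.000556). Mmp7, matrilysin, a protease of epithelial cells, was near the limit of detection, with 1, 4 and 4 counts untreated and 11, 15 and 25 in colitis (2.31 ± 0.67, adjusted p = 0.0230). Its call was lost without untreated replicate 1 or 3 or colitic replicate 3, with log2 fold changes of 1.70 to 2.56 over the 6 fits that left out 1 library. Timp1 was at 2.05, 0.474 and 1.69 CPM untreated and at 66.5, 30.8 and 69.4 in colitis (5.37 ± 0.47, adjusted p = 2.20e-05). Colitic replicate 2 had the lowest Timp1 of the colitic libraries and the most Mmp2, Mmp3, Mmp10, Mmp12 and Mmp14.

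In Tmem173iΔmye mice fewer of these genes were called. DSS raised 6 of 10, Mmp3, Mmp8, Mmp10, Mmp12, Mmp13 and Timp1, against 1.48% of all genes tested, and the median log2 fold change was 2.42, against 0.02 over all genes. Every colitic library was above every untreated one for 7 of 10, against 12.1% of all genes. Mmp3 was at 1.70, 1.56 and 0.902 CPM in untreated replicates 1, 2 and 3 and at 61.7, 47.5 and 41.5 in colitic replicates 1, 2 and 5 (5.17 ± 0.32, edgeR adjusted p = 0.000229). Mmp10 went from 1.82, 1.32 and 0.842 CPM to 64.3, 59.7 and 13.1 (5.10 ± 0.60, adjusted p = 0.00341). Replicate 5 was the lowest colitic library for both genes and still lay above all untreated ones.

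Mmp13 went from 8.43, 10.5 and 6.67 CPM to 65.4, 68.1 and 14.9 (2.53 ± 0.48, adjusted p = 0.0267). Mmp12 went from 4.31, 1.38 and 1.44 CPM to 8.41, 10.1 and 16.9 (2.31 ± 0.49, adjusted p = 0.0414), and here replicate 5 was the highest library. Timp1 went from 5.89, 1.32 and 2.34 CPM to 19.8, 12.1 and 14.6 (2.28 ± 0.49, adjusted p = 0.0430). Mmp8 had no count in any untreated Tmem173iΔmye library, where 3 counts, the limit that a count of 0 allows, correspond to 0.18 to 0.182 CPM. It had 69, 95 and 8 counts in colitic ones, at least 61.3-fold higher than 3 counts over the untreated group (adjusted p = 0.0251).

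The 4 genes that were not called in Tmem173iΔmye mice were Mmp2, Mmp9, Mmp14 and Mmp7. Mmp2 was at 48.6, 59.8 and 55.7 CPM untreated and at 191, 168 and 69.7 in colitis (1.38 ± 0.33, adjusted p = 0.0612), so that all colitic libraries were higher without passing the test. Mmp9 was at 1.94, 1.98 and 1.38 CPM untreated and at 23.7, 13.8 and 1.88 in colitis (2.88 ± 0.71, adjusted p = 0.0722), with replicate 5 among the untreated libraries. Mmp14 was at 117, 116 and 113 CPM untreated and at 210, 176 and 113 in colitis (0.52 ± 0.24, adjusted p = 0.321), again with replicate 5 at the untreated level. Mmp7 had 13, 21 and 12 counts untreated and 7, 27 and 16 in colitis (0.19 ± 0.56, adjusted p = 0.911), and its groups overlapped.

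The count of 6 depended on single libraries. It was 1, Mmp3, without untreated replicate 2 or 3, 2, Mmp3 and Mmp10, without colitic replicate 1 or 2, and 8 without colitic replicate 5. limma on log2(FPKM + 0.1) called 1 gene, Mmp3, and edgeR's own filter on low counts left 3. Mmp3 was called in each of the 15 alternative fits.

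**Figure D2:**
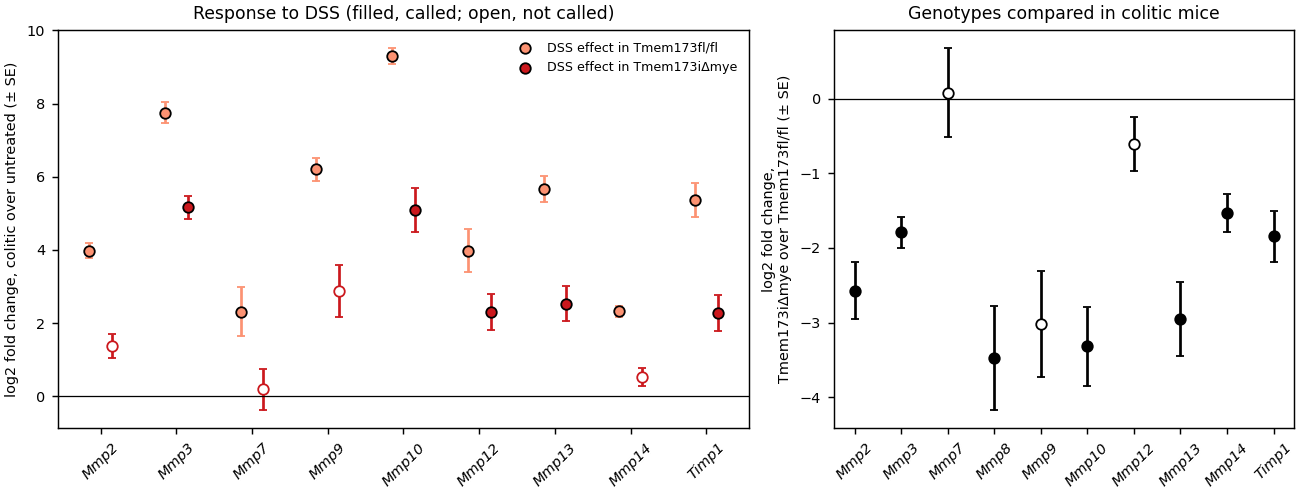
Left, log2 fold change of colitic over untreated mice ± SE for each genotype; right, log2 fold change of Tmem173iΔmye over Tmem173fl/fl mice within colitis ± SE; filled points were called and open points were not. Every point of the Tmem173fl/fl response lies above that of the Tmem173iΔmye response; Mmp8 is left out on the left because its untreated libraries hold 0 to 2 counts.

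The response to DSS was compared between genotypes by the interaction term over all 12 libraries. It was called lower in Tmem173iΔmye mice for 6 of 10 genes, against 1.61% of all genes tested, with a median of -2.52 for the members and 0.04 for all genes. The difference in log2 fold change was -4.12 ± 0.71 for Mmp10 (edgeR adjusted p = 0.00929), -3.08 ± 0.65 for Mmp13 (0.0249), -3.02 ± 0.74 for Timp1 (0.0462), -2.52 ± 0.41 for Mmp2 (0.00832), -2.51 ± 0.42 for Mmp3 (0.00885) and -1.72 ± 0.28 for Mmp14 (0.00793). It was not called for Mmp9 (-3.25 ± 0.88, adjusted p = 0.0672), Mmp7 (-2.05 ± 0.87, 0.232) or Mmp12 (-1.61 ± 0.85, 0.340), and for Mmp8 the untreated counts were too low for it to be measured. Mmp2, Mmp3, Mmp10 and Mmp14 were called in each of the 12 fits that left out 1 library and in the other 8 alternatives, Mmp13 in 7 of the 12 and Timp1 in 3 of the 12.

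Within untreated mice no member was called between genotypes by edgeR, DESeq2 or limma. Of all genes, edgeR called 0 (0.0%), DESeq2 8 and limma 0, and 720 of 24102 had an unadjusted edgeR p under 0.05, with Mmp7 among them. Mmp7 had 1, 4 and 4 counts in Tmem173fl/fl and 13, 21 and 12 counts in Tmem173iΔmye libraries, or 0.0757 to 0.271 against 0.721 to 1.26 CPM (log2 fold change 2.15 ± 0.65, unadjusted p = 0.00528, adjusted p = 1). Markers of Paneth cells, which make Mmp7 in the small intestine, summed to 38.6 to 148 against 11.7 to 561 CPM, most of it Ang4. None of the 3 tested was called. Ang4 (log2 fold change 1.40 ± 1.04) and Itln1 (1.43 ± 0.92) had the sign of Mmp7 with overlapping groups, and Lyz1 had the opposite sign without overlap (-1.38 ± 0.40). The 3 defensin genes of the list had 0 counts in all 6 libraries, so the sum does not show that Paneth cells were present. Besides Mmp7, the groups did not overlap for Mmp14, at 94.5 to 108 against 113 to 117 CPM (0.20 ± 0.14). Of all genes, 3.66% lay higher in Tmem173iΔmye mice without overlap. Untreated Tmem173iΔmye replicate 1 was the highest untreated library for Timp1, Mmp3, Mmp10 and Mmp12.

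Within colitis, 7 of the 10 genes were called lower in Tmem173iΔmye mice than in the controls without Cre, against 1.99% of all genes tested. For 8 of 10, every Tmem173iΔmye library was below every Tmem173fl/fl one, against 14.8% of all genes. The median log2 fold change was -2.21 for the members and 0.02 over all genes. The ratio of the Tmem173iΔmye mean to the Tmem173fl/fl mean was 0.0909 for Mmp8 (log2 fold change -3.47 ± 0.69, edgeR adjusted p = 0.0376), 0.101 for Mmp10 (-3.32 ± 0.53, 0.0213) and 0.13 for Mmp13 (-2.95 ± 0.50, 0.0252). It was 0.169 for Mmp2 (-2.57 ± 0.38, 0.0181), 0.279 for Timp1 (-1.84 ± 0.34, 0.0311), 0.29 for Mmp3 (-1.79 ± 0.21, 0.00990) and 0.347 for Mmp14 (-1.53 ± 0.26, 0.0250). Mmp9 had a ratio of 0.124 without overlap and was not called (-3.01 ± 0.71, adjusted p = 0.0604). Mmp12 (-0.61 ± 0.36, 0.390) and Mmp7 (0.08 ± 0.59, 0.961) overlapped between genotypes. The colitic libraries here are those of the DSS comparisons, so these results are not independent of them.

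The 7 calls rested on few mice. Without colitic Tmem173fl/fl replicate 1, or without colitic Tmem173iΔmye replicate 2, none was called. Without Tmem173fl/fl replicate 3 it was 2 (Mmp2 and Mmp3), without Tmem173fl/fl replicate 2 it was 4 (also Mmp10 and Timp1), and without Tmem173iΔmye replicate 1 or 5 it was again 7, with Mmp9 in place of Mmp8 or of Timp1. All 7 genes stayed lower in each of the 6 fits that left out 1 library. limma called Mmp3 alone at either pseudocount.

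The 3 colitic Tmem173iΔmye libraries were not alike. Replicates 1 and 2 lay close to each other in most members, and replicate 5 was lower for Mmp2, Mmp8, Mmp9, Mmp10, Mmp13 and Mmp14. Mmp8 in replicates 1, 2 and 5 was at 11.9, 14.3 and 1.17% of the colitic Tmem173fl/fl mean, and Mmp9 at 22.4, 13.1 and 1.79%. Mmp10 was at 14.2, 13.2 and 2.89%, and Mmp13 at 17.2, 17.9 and 3.93%. Mmp3 was more even, at 35.6, 27.4 and 24.0%, and so was Timp1, at 35.7, 21.7 and 26.3%. Mmp12 ran the other way, at 47.1, 56.5 and 94.6%, so that replicate 5 had the highest Mmp12 and the lowest Mmp8, Mmp9, Mmp10 and Mmp13 of its group. Replicate 5 was also the colitic library with Xist reads. Leaving out the libraries with Xist reads is therefore the fit without replicate 5 given above, with 7 members called lower and Mmp9 in place of Timp1.

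**Figure D3:**
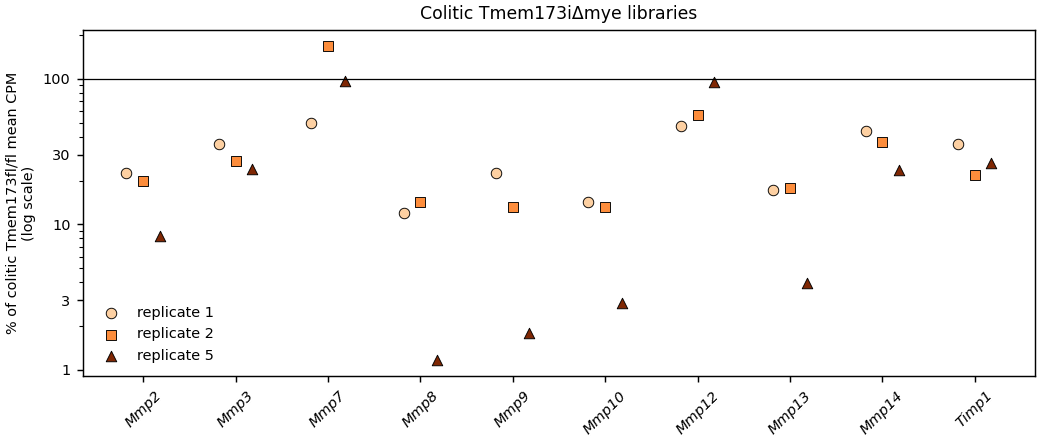
CPM of the 10 genes in the 3 colitic Tmem173iΔmye libraries as a percent of the colitic Tmem173fl/fl mean, on a log axis; the line marks 100%. Replicate 5 falls to 1.17% for Mmp8 and 1.79% for Mmp9 and lies at 94.6% for Mmp12 and 96.9% for Mmp7. Mmp7, on low counts, lies at 49.7% in replicate 1 and above the line, at 168%, in replicate 2.

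Levels between genes were compared as the authors' FPKM, which divides by gene length. Among the 9 Mmp members in untreated Tmem173fl/fl mice, Mmp14 (16.5 ± 1.04 FPKM, SD, n = 3) and Mmp2 (16.3 ± 1.38) led and did not differ beyond their spread, followed by Mmp13 (2.84 ± 1.41), with the other 6 under 0.5. Of the other Mmp genes, Mmp15, also membrane-anchored, stood at 23.5 ± 5.16 FPKM in the same libraries. Untreated Tmem173iΔmye mice had Mmp14 at 19.0 ± 0.25 and Mmp2 at 15.9 ± 1.66, again followed by Mmp13 (3.13 ± 0.70). In colitic Tmem173fl/fl mice the order changed: Mmp10 (266 ± 24.5) and Mmp2 (253 ± 52.8) led within their spread, then Mmp13 (144 ± 5.61), Mmp3 (97.1 ± 11.4), Mmp14 (81.1 ± 8.47), Mmp9 (30.1 ± 10.2), Mmp8 (17.3 ± 5.42), Mmp12 (2.49 ± 0.98) and Mmp7 (0.95 ± 0.58). In colitic Tmem173iΔmye mice Mmp2 (41.9 ± 19.2), Mmp14 (27.6 ± 8.43), Mmp3 (27.5 ± 6.0), Mmp10 (26.3 ± 16.4) and Mmp13 (18.3 ± 11.2) had overlapping ranges over the group, and Mmp9 followed at 3.68 ± 3.08. Within each of these 3 libraries Mmp2 was above Mmp14, Mmp10 and Mmp13, and Mmp3 was above Mmp2 in replicate 5 alone.

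The FPKM of the 9 Mmp genes summed to 35.8 to 39.7 in untreated Tmem173fl/fl, 39.6 to 43.6 in untreated Tmem173iΔmye, 807 to 981 in colitic Tmem173fl/fl and 77.9 to 198 in colitic Tmem173iΔmye libraries. Mmp14 and Mmp2 made up 44.4% and 43.6% of that sum in untreated Tmem173fl/fl mice. In colitic ones Mmp10 took 29.9%, Mmp2 28.2%, Mmp13 16.2% and Mmp14 9.10%. In colitic Tmem173iΔmye mice Mmp2 took 27.6%, Mmp3 20.4%, Mmp14 19.5% and Mmp10 16.1%. The share of Mmp14 in untreated Tmem173iΔmye mice was 46.2%. In colitic replicate 5 Mmp3 reached 28.8%, the highest share of the 9.

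Timp1 was set beside the other TIMP genes. Timp2, the inhibitor that also takes part in proMMP2 activation, was at 94.2 to 126 CPM in untreated Tmem173fl/fl and 376 to 513 in colitic Tmem173fl/fl mice, and was called higher in colitis (log2 fold change 2.13 ± 0.19, edgeR adjusted p = 2.32e-05) and, at 189 to 238 CPM in colitic Tmem173iΔmye mice, lower between the colitic genotypes (-1.06 ± 0.21, 0.0350). Timp3, which binds to the matrix, was called higher in colitic Tmem173fl/fl mice (1.62 ± 0.18, 9.82e-05) and was not called between colitic genotypes (-0.56 ± 0.27, 0.297). Timp4 was at 0.214 to 6.92 CPM in all 12 libraries and was not called. Timp1 made up 1.67 to 6.84% of the summed FPKM of the 4 TIMP genes in untreated Tmem173fl/fl libraries, 3.74 to 17.1% in untreated Tmem173iΔmye, 18.5 to 39.2% in colitic Tmem173fl/fl and 17.0 to 22.3% in colitic Tmem173iΔmye ones. The sum of the 9 Mmp genes over that of the 4 TIMP genes was 0.853 to 1.21 and 0.934 to 1.12 in untreated Tmem173fl/fl and Tmem173iΔmye libraries, 3.99 to 5.22 in colitic Tmem173fl/fl and 0.992 to 2.20 in colitic Tmem173iΔmye ones. Over Timp1 alone, the sum of the 9 Mmp genes was 17.7 to 68.8 and 6.2 to 30.1 in the untreated groups, 10.2 to 28.1 in colitic Tmem173fl/fl and 4.85 to 12.9 in colitic Tmem173iΔmye libraries, and the ranges of untreated and colitic libraries overlapped in both genotypes. RNA ratios of this kind say nothing of enzyme activity.

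On chromosome 9 the response differed from neighbour to neighbour. Mmp1a, between Mmp3 and Mmp10, had 0 counts in all 12 libraries. Mmp1b had at most 5 counts and Mmp20 at most 2 in any library, and none of these 3 passed the filter on low values. Mmp27, downstream of Mmp8, had 0, 0 and 2 counts in untreated Tmem173fl/fl, 20, 15 and 11 in colitic Tmem173fl/fl and 17, 8 and 2 in colitic Tmem173iΔmye libraries. It was called higher by DSS in the controls without Cre (edgeR adjusted p = 0.00509) at a level far under those of Mmp10 and Mmp3.

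**Figure D4:**
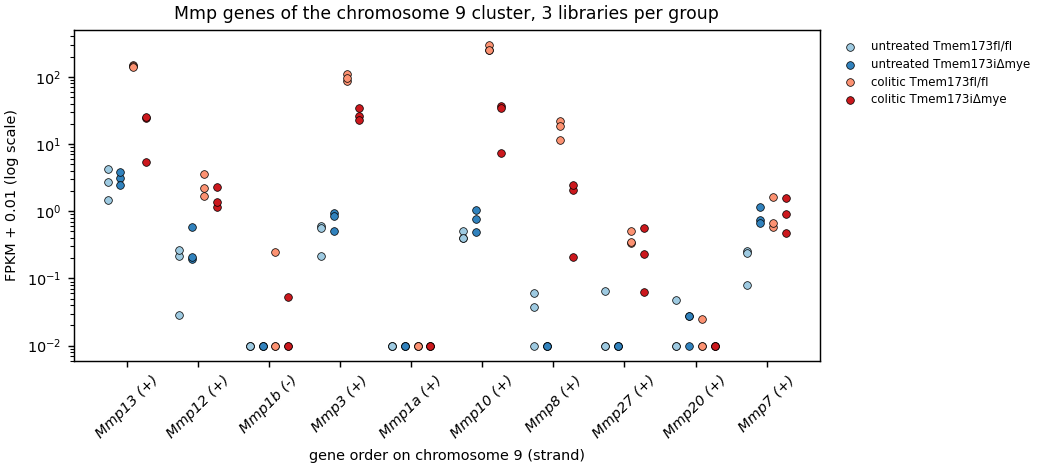
FPKM plus 0.01 on a log axis for the 10 Mmp genes of the chromosome 9 cluster in gene order, with 3 libraries per group. In colitic Tmem173fl/fl libraries Mmp10 (mean 266), Mmp13 (144) and Mmp3 (97.1) stand highest, while Mmp1a sits at 0 in all libraries between Mmp3 and Mmp10.

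Likeness was measured as the correlation of log2(CPM + 0.5) across the 12 libraries. The points share groups and depth, so these values are descriptions, and small differences between high values set no order. Mmp2 and Mmp14 followed each other (Pearson r = 0.99), and the gene nearest to both was Axl, a receptor tyrosine kinase (r = 0.995 and 0.994). Mmp8 followed Mmp9 (0.99), Mmp13 (0.984) and Mmp2 (0.982), and the genes nearest to Mmp8 were Trem1, a receptor of neutrophils and monocytes (0.997), Ptprb, a phosphatase of endothelium (0.994), and Pde7b (0.992). Mmp10 was nearest to Serpina3m (0.997) and to Il1r1, the interleukin-1 receptor (0.996). Mmp12 was nearest to Cxcl5 and Chil3 (0.951 each) and to Trem2 (0.945), the last a receptor of macrophages, and was less like Mmp2 (0.762) and Mmp9 (0.766) than like Timp1 (0.924). Mmp7 was at 0.324 to 0.508 with the other 9. Its 1 to 27 counts per library leave much counting error in these values, so they do not show a pattern of its own.

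Other genes of the pathway were counted from lists. Over all genes tested, 14.9% were called higher by DSS in Tmem173fl/fl mice and 1.48% in Tmem173iΔmye mice. Between colitic genotypes 1.99% were called lower in Tmem173iΔmye mice. Of 10 further Mmp genes tested, 7 were called higher by DSS in Tmem173fl/fl mice and 1, Mmp19, in Tmem173iΔmye mice. Mmp19 was at 56.0 to 104 CPM in colitic Tmem173fl/fl and 15.4 to 25.9 in colitic Tmem173iΔmye mice (edgeR adjusted p = 0.0180, log2 fold change -2.02 ± 0.29) and was the 1 of 10 called lower there. Of 8 further inhibitors, 6 were called higher by DSS in Tmem173fl/fl mice and 3 lower between colitic genotypes, among them Timp2 and A2m (-1.78 ± 0.32, 0.0284), a broad protease trap. Of 11 activators and partners, 5 were called higher by DSS in Tmem173fl/fl mice and 2 lower between colitic genotypes, Plau (-2.19 ± 0.38, 0.0276), urokinase, and Lcn2 (-3.65 ± 0.66, 0.0293), whose protein binds MMP9. Of 15 ADAM and ADAMTS proteases, 9 were called higher by DSS in Tmem173fl/fl and 5 in Tmem173iΔmye mice, and 5 lower between colitic genotypes.

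Of 30 matrix genes, the substrates of these enzymes, 29 were called higher by DSS in Tmem173fl/fl mice, 5 in Tmem173iΔmye mice, and 20 lower between colitic genotypes, for example Col1a1 (-1.69) and Col4a1 (-2.01, both log2). For these 3 comparisons the shares over all genes tested were 14.9%, 1.48% and 1.99%. Of 16 inducers of Mmp transcription, 11 and 7 were called higher by DSS in the respective genotypes and 5 lower between colitic genotypes. These were Il11 (-3.27), Il6 (-2.36), Osm (-2.09), Fosl1 (-1.64), an AP-1 subunit, and Il1r1 (-1.28). Tnf had the opposite sign and was not called (1.18 ± 0.33, edgeR adjusted p = 0.0969), at 12.8 to 16.1 CPM in colitic Tmem173iΔmye and 3.68 to 8.81 in colitic Tmem173fl/fl libraries, without overlap. Of the inducers, only Il1r1 was called in the interaction (-1.39 ± 0.27, edgeR adjusted p = 0.0173), where 1.61% of all genes were called lower. No gene of these lists was called between untreated genotypes.

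Summed markers of fibroblasts, macrophages and neutrophils moved with the members. So did those of endothelium and of red blood cells, so the parallel is not particular to cells named above as sources. In untreated Tmem173fl/fl libraries these were at 100 to 110 and 4.07 to 6.59 CPM, and their colitic values are given further on. The smooth muscle and colon epithelium lists, also given further on, did not move with the members. Summed over 8 markers each, fibroblast genes were at 1232 to 1423 CPM in untreated Tmem173fl/fl, 8226 to 10390 in colitic Tmem173fl/fl and 2359 to 3484 in colitic Tmem173iΔmye libraries. Between colitic genotypes 6 of 8 were called lower, against 1.99% of all genes tested. Macrophage genes were at 212 to 287, 820 to 1024 and 363 to 637 CPM in the same groups, and 2 of 8 were called lower, Mrc1 and Itgam. Neutrophil genes were at 46.6 to 106, 397 to 656 and 199 to 324 CPM, and without Ly6g, which held much of these sums, at 5.08 to 9.14, 302 to 432 and 51.4 to 107 CPM. Of them 3 of 7 tested were called lower, S100a8, S100a9 and Cxcr2. The neutrophil genes were not alike, as a pair picked after their values were seen shows: S100a9 was at 164, 98.7 and 159 CPM in colitic Tmem173fl/fl and 21.8, 28.0 and 4.55 in colitic Tmem173iΔmye libraries, whereas Ly6g was at 224, 95.2 and 143 against 217, 101 and 239 CPM. Within the colitic Tmem173iΔmye group S100a8, S100a9, Csf3r, Cxcr2 and Retnlg were lowest in replicate 5, as Mmp8 and Mmp9 were, and Ly6g and Ltf were highest there. Mpo, of early neutrophils, had at most 5 counts in any library. The part of cell numbers in the change of the proteases was not tested.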

How the data were processed

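Poly(A) RNA of mouse colon was sequenced in 12 libraries. The authors deposited 1 table with whole-number read counts per gene and FPKM, which the authors scaled to gene length and library total; the submitters' processing notes name CASAVA 1.8, fastp, HISAT2 2.0.5, featureCounts 1.5.0-p3, DESeq2 1.20.0 and GRCm38/mm10. The deposited table also holds the authors' group means, fold changes and p-values for their comparisons, which were not used, and gene annotation. All 12 count and 12 FPKM columns were matched to a library.

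From the counts, edgeR 4.0.16 (R 4.3.3) quasi-likelihood tests with TMM scaling were fitted to the groups compared, and the interaction to all 12 libraries. The test covered genes that reached 0.1 FPKM in 3 or more libraries (24102 of 54532, all 10 members included). A gene was called when its p-value after Benjamini-Hochberg adjustment was below 0.05 and its log2 fold change reached 1 in either direction. Replicate spread is given as SD, and fold changes with SE. For edgeR this SE is the absolute log2 fold change divided by the square root of the test's F statistic. The scripts were tested on simulated data. Alternatives were DESeq2 1.42.0 (its size factors and its Wald test), no filter or filterByExpr, limma 3.58.1 on log2(FPKM + 0.1) or log2(FPKM + 1), other thresholds, 1 fit of all libraries, a replicate block, and leaving out each library or those with Xist reads. Same-numbered mice did not deviate together (correlations -0.172 to 0.184), so numbers were not taken to pair mice. The members and lists were chosen with earlier results of these data known. Named were all members, TIMP genes and cluster neighbours. List genes called in the comparison described and, for up to 5 members, the 3 genes most correlated could be named, and examples of these were taken with their values seen, as were Mmp15 and the Paneth and neutrophil markers. Tnf was named as well, although it was not called between colitic genotypes. Counting intervals cover counting error only. Values of 1 gene of the lists are not reported here.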

Additional observations from a re-analysis of the deposited data

Results flagged for a closer look

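For 6 genes the response to DSS differed between the genotypes by the interaction test (edgeR), each smaller in Tmem173iΔmye mice. The difference in log2 fold change was -4.12 for Mmp10, -3.08 for Mmp13, -3.02 for Timp1, -2.52 for Mmp2, -2.51 for Mmp3 and -1.72 for Mmp14. Single libraries were not tested as outlying within the groups of 3.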

How the results depend on the processing

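In Tmem173fl/fl mice the count of members raised by DSS stayed at 9 or 10 of 10 in the alternatives run. In Tmem173iΔmye mice 6 became 3 with filterByExpr, 1 with limma at either pseudocount, and 1 to 8 when 1 library was left out, and was 8 with no filter, the DESeq2 Wald test, an unadjusted p or 1 fit of all libraries. Between colitic genotypes 7 became 1 with limma at either pseudocount and 0 to 7 when 1 library was left out, and was 8 in those 4 settings. Between untreated genotypes 0 became 1, Mmp7, at an unadjusted p of at most 0.05. The interaction gave 4 to 7 when 1 library was left out. With the replicate block the counts were 10, 8, 0, 5 and 7 for DSS in Tmem173fl/fl, DSS in Tmem173iΔmye, untreated genotype, colitic genotype and interaction. Directions that turned concerned fold changes that were not called: Mmp7 for DSS in Tmem173iΔmye mice (-0.025 with the replicate block, -0.30 to 0.52 with 1 library left out), Mmp7 between colitic genotypes (-0.41 to 0.68 with 1 left out), and between untreated genotypes Mmp2 (-0.099 to 0.049) and Mmp13 (-0.17 to 0.57). Of 760 values for single genes, 629 kept direction and side of the threshold, 96 lost a call, 26 gained one and 9 turned; the cause was not tested. These leave out the Mmp8 fold change between untreated genotypes and in the interaction (-0.97 to 0.34 with 1 library left out), which its untreated counts of 0 to 2 do not measure. For DSS in Tmem173fl/fl mice and between colitic genotypes, the fit without Xist libraries is also a fit without 1 library, and both were counted. Low counts limit Mmp7 and untreated Mmp8.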

Other observations

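Markers of some other cells were also lower in colitic Tmem173iΔmye mice. All 5 red blood cell genes were called lower than in colitic Tmem173fl/fl mice (edgeR; 1.99% of all genes), at a summed 23.8 to 29.0 against 152 to 323 CPM, and so were 3 of 6 endothelial genes, at 164 to 328 against 447 to 616 CPM. Of 6 smooth muscle genes none was called in any of the 5 comparisons, in which 0 to 22.5% of all genes were called in either direction. Of 8 colon epithelial genes, 6 were called lower (7.61% of all genes) and 1 higher (14.9%) by DSS in Tmem173fl/fl mice. None was called by DSS in Tmem173iΔmye mice, where only 2.08% of all genes were called in either direction and 0.597% lower. There 7 of the 8 had a negative log2 fold change (median -0.42), so the absence of calls does not show an absence of change. Between colitic genotypes 7 of the 8 had a positive log2 fold change and 1, Slc26a3, a chloride transporter, was called higher in Tmem173iΔmye mice (1.84 ± 0.35, edgeR adjusted p = 0.0332), against 0.822% of all genes. In the interaction Slc26a3 and Cdh1, E-cadherin, were called higher, against 0.934% of all genes.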
